A study of Mus musculus with 6 samples.

Results

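The nuclear genes of oxidative phosphorylation were compared between 2 tumor cell populations, complex by complex. They were taken by symbol: every gene whose name begins with Ndufa, Ndufb, Ndufc, Ndufs, Ndufv, Uqcr, Cox4 to Cox8 or Atp5, and Sdha, Sdhb, Sdhc and Sdhd. The rule found 92 of the 24129 gene names, and 83 of these had enough reads to be tested. They comprise 36 genes of complex I, 4 of complex II, 8 of complex III, 20 of complex IV, 15 of the ATP synthase, 7 assembly factors of complex I, and Atp5s and Atp5sl, which carry the Atp5 symbol without being subunits of the enzyme. The rule itself uses symbols and no value from the libraries, but it was chosen, like the lists below, with earlier results of these data known.

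Oxidative phosphorylation takes place in the inner mitochondrial membrane. Complex I accepts electrons from NADH and complex II from succinate, coenzyme Q carries them to complex III, cytochrome c carries them on to complex IV, and complex IV reduces oxygen. Complexes I, III and IV pump protons across the membrane, and the ATP synthase makes ATP from the returning flow. Complexes I, III and IV and the ATP synthase also contain subunits encoded by mitochondrial DNA, whereas complex II is encoded wholly in the nucleus.

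RNA of T1 cells and of T2 cells, in 3 replicates each, was analysed to ask which genes differ between tumor cells that behave differently. Both populations came from BALB/c mouse mammary tumor tissue grown from injected 4T1GFP cells, a mouse mammary carcinoma line tagged with green fluorescent protein (GFP). T1 cells (labelled 4T1A) were adherent and low in GFP, with epithelial morphology, and are described in the labels as highly proliferating and aggressive in the animal. T2 cells (labelled 4T1NA) were round, loosely adherent and, by the study's description, high in GFP. Both were kept in DMEM/F-12 medium with fetal bovine serum, but T2 cells were passaged as a suspension without trypsin. As the methods tell it, both populations were sorted again from a single fibroblast culture that GFP-positive tumor cells had overgrown, so the replicates are samples of 1 isolate of each population. The labels do not say whether replicates came from separate cultures, and the p-values measure only the spread between these samples. The parental 4T1GFP cells and the 13 subunit genes of mitochondrial DNA were not analysed here.

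The 6 libraries held 18133227 to 20839686 reads on genes. Values are the study's normalized counts, read counts divided by 1 size factor per library. Genes that averaged 10 normalized counts or more, 11514 in all, were tested with limma on log2(normalized count + 1), and p-values were adjusted over all of them by the method of Benjamini and Hochberg. The term called, higher or lower, stands for an adjusted p-value under 0.01, and every difference below is T1 minus T2 on that log2 scale. Of the epithelial markers, Krt8 and Krt18 were high in every library, but Epcam reached only 37.2 normalized counts in the highest T2 library against 2931 in the lowest T1 library. Cdh1 likewise reached 484 in the highest T2 library against 13726 in the lowest T1 library. The summed level of 4 epithelial markers was 60167 to 66104 in T1 and 37472 to 43407 in T2 libraries. The sum of 8 fibroblast markers was 225 to 241 and 997 to 1295. It consisted mostly of Pdgfra, which the study measured as a mesenchymal marker of T1 and T2 cells. By the study's expression scores, T2 cells were the more mesenchymal. Col1a1 was higher in T1, at 14.8 to 27.9 in T1 and at most 0.979 in T2 libraries. Col1a2 stood at 4.23 to 11.7 in T1 and at 0 in T2 libraries. Col3a1, Lum, Pdgfrb and Thy1 were at 0 in every library. The sum of 6 leukocyte markers was 385 to 463 and 166 to 203, mostly Cd14 and Cd68, with Tyrobp at 0 in every library and Ptprc at 0 in T1 and at most 6.14 in T2 libraries. Striated muscle markers summed to at most 3.17 in T1 and to 212 to 300 in T2 libraries, mostly Myh1, with Ckm and Actn2 at 0. These marker levels differed between the populations compared below, and their part in the results was not tested. In such bulk samples, fewer cells of a type and less RNA per cell cannot be told apart.

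More genes of oxidative phosphorylation were higher than lower in T1 cells, and the differences were small. Of the 83 genes tested, 29 were called higher (34.9%) and 4 lower (4.82%), while 50 were not called. Over all 11514 genes tested, 25.1% were called higher and 24.4% lower, and each count of called genes below is to be read against these shares. The share called in either direction was 39.8% among the OXPHOS genes and 49.5% among all genes, and at an adjusted p-value under 0.05 it was 59% and 62.5%. Their median log2 difference was 0.23, against -0.0055 for all genes, and their middle 50% ran from 0.05 to 0.50, against -0.46 to 0.44. The median absolute difference was 0.28 in the OXPHOS genes and 0.45 in all genes. An absolute log2 difference above 1 at an adjusted p-value under 0.01 was reached by 2 of the genes, Ndufaf4 and Ndufaf6 (2.41%, against 20.3% of all genes). With the filter of the study's methods, an absolute log2 difference above 2, the count was 0 with limma, edgeR and DESeq2, and also at an unadjusted p-value under 0.05 (8.37% of all genes passed it with limma). Without that filter on size, 50 of the genes (60.2%) had an unadjusted p-value under 0.05 in limma. That share was below the 62.5% of all genes with an adjusted p-value under 0.05, a stricter limit. The T1 and T2 values did not overlap in 56 genes (67.5%, against 68.1% of all genes), and in 46 of these every T1 replicate lay above every T2 replicate (55.4%, against 34.2%).

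**Figure D1:**
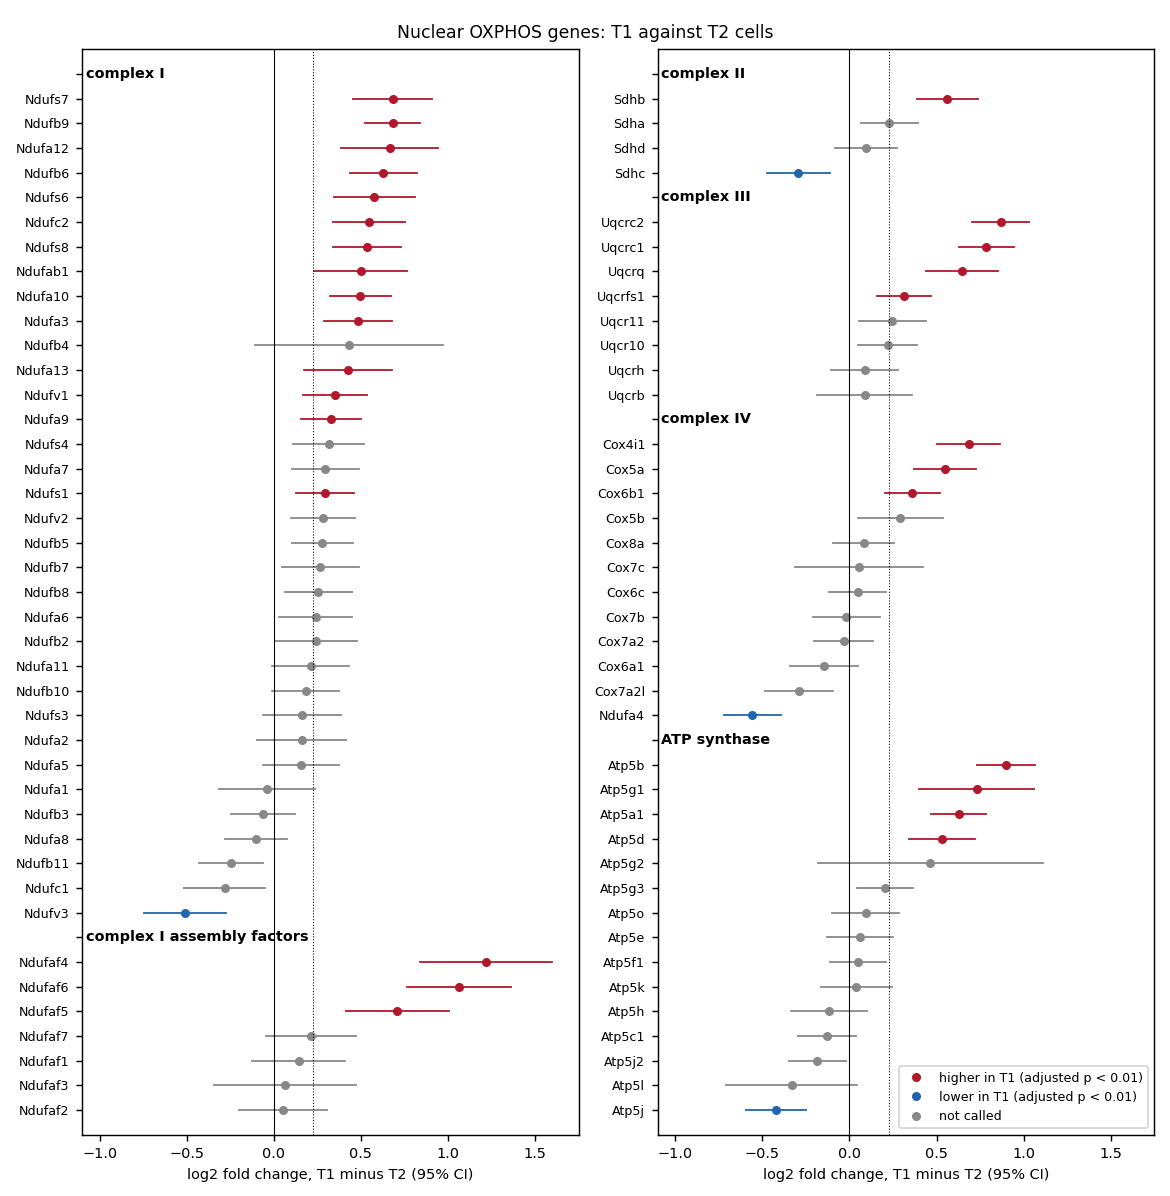
Log2 difference (T1 minus T2, x axis) with its 95% confidence interval from limma for the OXPHOS genes tested, grouped by complex (rows; not every gene tested is drawn). Red points were called higher in T1 cells, blue points lower and grey points not called at an adjusted p-value of 0.01; the dotted line marks the median of the OXPHOS genes (0.23), and the assembly factor Ndufaf4 lies farthest to the right at 1.22.

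The promoters of these genes were read from the RefSeq table for build GRCm38.p6, in which 73 of the 92 genes had an entry. Each ran from 250 bases before to 50 after the first start listed for a gene symbol, and any other start was not searched. Nuclear OXPHOS genes are known as targets of nuclear respiratory factor 1 (NRF1), of GABP, a factor of the ETS family, and of YY1, so 1 sequence for each was searched on both strands. The NRF1 sequence, GCGC followed by any base and TGCGC, was found in 18 of the 73 promoters (24.7%) and in 4.78% of all 27025 promoters. The ETS sequence CCGGAAG was found in 16 (21.9%, against 9.12%), and the YY1 sequence AAGATGGC in 8 (11%, against 2.88%). At least 1 of them occurred in 37 promoters (50.7%, against 15.2%). A promoter with several matches was counted once, and overlapping matches were kept. It occurred in 11 of the 22 promoters of genes called higher in T1 cells, in 0 of the 3 of genes called lower, in 25 of the 43 of genes not called, and in 1 of the 5 of genes not tested. A match is a string of letters and not a measured binding site. The 27025 promoters include those of genes not tested here, so their shares do not show that matches are particular to OXPHOS genes. The 140 bases before the start are shown for genes of each outcome: Ndufaf4 and Cox6b1, higher in T1 cells, Ndufa4, lower, and Sdha and Sdhd, not called. Capitals mark the matches, written on the strand of the gene, so that an ETS match on the other strand reads CTTCCGG.
Ndufaf4: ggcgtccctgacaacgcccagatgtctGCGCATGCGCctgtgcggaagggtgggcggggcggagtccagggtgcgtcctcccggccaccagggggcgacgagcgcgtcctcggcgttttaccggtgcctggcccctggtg
Cox6b1: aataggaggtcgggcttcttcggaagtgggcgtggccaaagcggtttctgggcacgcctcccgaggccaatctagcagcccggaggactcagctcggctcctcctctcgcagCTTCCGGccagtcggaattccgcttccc
Sdha: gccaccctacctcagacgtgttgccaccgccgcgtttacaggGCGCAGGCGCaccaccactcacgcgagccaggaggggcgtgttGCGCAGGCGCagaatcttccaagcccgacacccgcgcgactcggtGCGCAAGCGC
Sdhd: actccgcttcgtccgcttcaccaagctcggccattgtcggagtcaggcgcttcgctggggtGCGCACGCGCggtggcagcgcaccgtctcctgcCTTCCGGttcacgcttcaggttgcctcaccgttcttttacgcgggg
Ndufa4: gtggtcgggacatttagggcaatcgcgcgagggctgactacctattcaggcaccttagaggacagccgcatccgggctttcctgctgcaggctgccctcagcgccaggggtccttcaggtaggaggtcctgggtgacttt
These stretches lie at chr4:24897943-24898082 on the plus strand for Ndufaf4 and, on the minus strand, at chr7:30626115-30626254 for Cox6b1, chr13:74350241-74350380 for Sdha, chr9:50603850-50603989 for Sdhd and chr6:11907451-11907590 for Ndufa4. The match of Ndufaf4 begins 113 bases before the start. Sdha holds 3 NRF1 matches, which begin 98, 55 and 10 bases before the start. Sdhd holds an NRF1 match that begins 79 bases and an ETS match that begins 46 bases before it. Cox6b1 holds an ETS match that begins 28 bases before the start, and the stretch of Ndufa4 holds none of the 3 sequences. For Cox6b1, Sdha and Ndufa4, the outermost start in the GENCODE annotation lies inside the stretch shown.

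Complex I, the NADH dehydrogenase, had 14 of its 35 tested genes called higher and 1 lower in T1 cells, with a median log2 difference of 0.28. Of its 7 core subunits of nuclear origin, which carry the flavin and the iron-sulfur clusters, 4 were called higher: Ndufs7, Ndufs8, Ndufv1 and Ndufs1. Ndufs7, which holds the last iron-sulfur cluster before coenzyme Q, had 1702, 1807 and 2060.3 normalized counts in the T1 replicates and 1282, 1104 and 1082 in the T2 replicates. All T1 values lay above all T2 values, with a log2 difference of 0.68 (standard error 0.10, adjusted p = 0.000203, limma). Ndufs8, which carries another pair of clusters, had 1440.1, 1517 and 1660.2 in T1 and 1106, 1061 and 1016 in T2 replicates. The groups were again apart, by 0.53 (standard error 0.09, adjusted p = 0.000373, limma). Ndufv1, the subunit that binds NADH and the flavin, had 2624, 2621 and 2954 and 2223, 2202 and 2003. It differed by 0.35 (adjusted p = 0.00388, limma), and its adjusted p-value rose to at most 0.018 and past 0.01 without T2 replicate 1 or without T2 replicate 3. Ndufs1, the largest core subunit, had 2685, 2823 and 2964 and 2306, 2218 and 2383. It differed by 0.29 (adjusted p = 0.00593, limma), but when single replicates were left out the adjusted p-value stayed under 0.01 only without T1 replicate 1, and it was at most 0.0229 when any other replicate was left out.

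The core subunits Ndufv2 and Ndufs3 were not called. Ndufv2, the partner of Ndufv1, had 2709.8, 2839 and 2792 and 2421, 2073 and 2380.1 normalized counts, which did not overlap, with a log2 difference of 0.28 (95% interval 0.10 to 0.46, adjusted p = 0.012, limma). For Ndufs3, a subunit near the coenzyme Q site, the T1 and T2 values overlapped, and the 95% interval of the difference was -0.06 to 0.38. Of the principal transcript of Ndufs3, 27.1% of 75-base windows also occur in a gene elsewhere in the genome, so its count may be incomplete.

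Of the 28 accessory subunits of complex I tested, which surround the core and take no part in electron transfer, 10 were called higher in T1 cells and 1 lower. Ndufb9 (chr15:58933756-58939488, plus strand) was among the most abundant, with 8930.3, 9220.0 and 9559 normalized counts in T1 and 6069.9, 5472 and 5741 in T2 replicates. The T1 values were all above the T2 values, by 0.68 on the log2 scale (standard error 0.07, adjusted p = 1.66e-05, limma). Exons of another gene on the same strand cover 19.5% of its exonic bases. The subunit called lower was Ndufv3, a small subunit beside Ndufv1 and Ndufv2. It had 656, 606 and 617 in T1 and 986, 793 and 904 in T2 replicates. All T1 values lay below all T2 values, with a log2 difference of -0.51 (standard error 0.11, adjusted p = 0.00177, limma). Without T2 replicate 1, which had the highest value, the adjusted p-value was 0.0117, past the threshold, and complex I then had 0 genes called lower in limma.

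The next accessory subunits are named with their values already known. Ndufa12, Ndufb6, Ndufs6, Ndufc2, Ndufab1, Ndufa10, Ndufa3, Ndufa13 and Ndufa9 were called higher, with log2 differences from 0.33 to 0.66. Of these, Ndufab1 is also the acyl carrier protein of mitochondrial fatty acid synthesis, and it had 564, 555 and 592 and 389, 362 and 467 normalized counts. Ndufab1 kept its call in 1 of the 6 fits that left out a replicate, Ndufa13 in 1 and Ndufa9 in 2, with adjusted p-values of up to 0.0208, 0.0312 and 0.018 (limma). Ndufab1 lost it in all but the fit without T2 replicate 3, Ndufa13 in all but that without T1 replicate 1, and Ndufa9 in all but those without T1 replicate 3 or T2 replicate 1. Exons on the other strand cover 39% of the exonic bases of Ndufb6 and 30% of those of Ndufa13, and reads of the strands could not be separated. Ndufb11 and Ndufc1 had negative differences of -0.25 and -0.28 that missed the threshold (adjusted p = 0.0249 and 0.0352, limma). Ndufs5 had 0 reads in every library, and 24.1% of its windows are shared with a gene elsewhere.

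**Figure D2:**
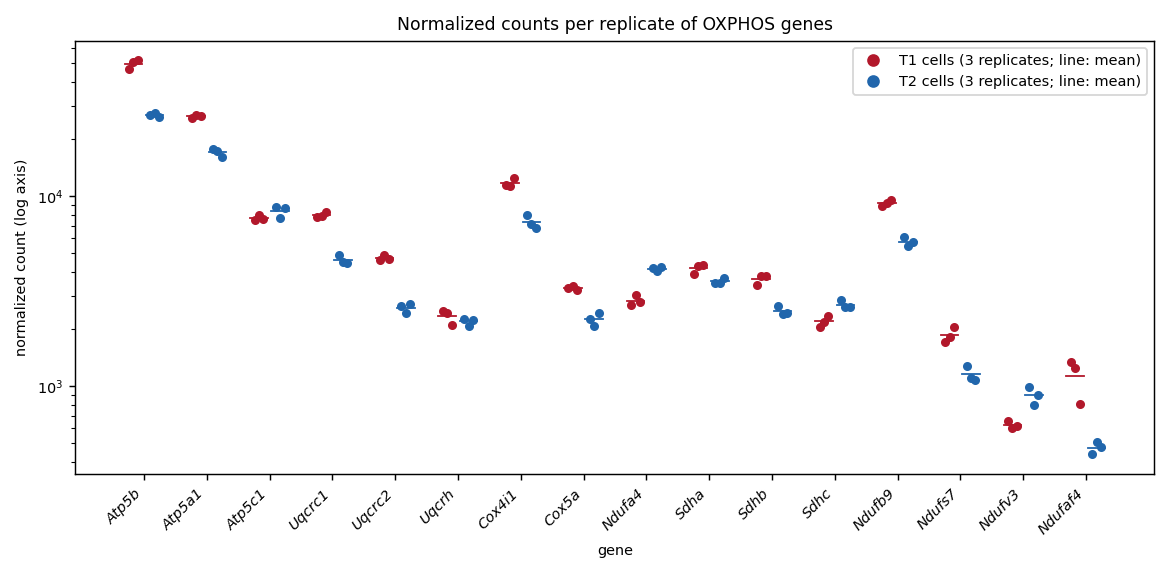
Normalized counts (y axis, log scale) of 16 OXPHOS genes in each replicate of T1 cells (red) and T2 cells (blue); horizontal lines are group means. The T1 replicates of Atp5b sit at 46627 to 51884, above T2 replicates at 26085 to 27401, whereas those of Ndufa4, Sdhc and Ndufv3 lie below the T2 replicates, and for Uqcrh and Atp5c1 the replicates overlap.

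Complex II, succinate dehydrogenase, is also an enzyme of the citric acid cycle, and of its 4 genes 1 was called higher in T1 cells, 1 lower and 2 were not called. These shares were near those of all genes tested, 25.1% higher and 24.4% lower. Sdhb, the iron-sulfur subunit (chr4:140961203-140979193, plus strand), had 3417, 3783 and 3820.1 normalized counts in T1 and 2639.9, 2393 and 2429 in T2 replicates. It was called higher in T1 cells, with no overlap, by 0.56 (standard error 0.08, adjusted p = 0.000134, limma). Sdha, the flavin subunit that oxidizes succinate, had 3902, 4293 and 4353 and 3507, 3501 and 3700.5. Its T1 values were also all above its T2 values, but the log2 difference of 0.23 missed the threshold (95% interval 0.06 to 0.39, adjusted p = 0.0207, limma). Sdhc, a membrane anchor, had 2047, 2179 and 2353 in T1 and 2832, 2605 and 2618 in T2 replicates, with every T1 value below every T2 value. It was called lower at -0.29 (standard error 0.08, adjusted p = 0.00934, limma), a call that stood only without T1 replicate 3 when single replicates were left out, with adjusted p-values of up to 0.0448. Sdhd, the other anchor, had overlapping values of 2957, 2875 and 2679 and 2787, 2462 and 2740.1, with an interval of -0.09 to 0.27. Of the sequences searched in promoters, Sdha had 3 NRF1 matches, Sdhd 1 NRF1 and 1 ETS match, and Sdhb 1 ETS match. Whether such matches bear on the calls was not tested. The median over the 4 genes was 0.16.

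Complex III, the cytochrome bc1 complex, had 4 of 8 genes called higher and 0 lower in T1 cells in limma, edgeR and DESeq2, and all 8 log2 differences were positive (median 0.28; with the exonic length trend of each library removed it was 0.18, and the difference of Uqcrh fell just below 0). At an unadjusted p-value under 0.05 in limma, 0 were lower. Both core proteins, which flank the complex on its matrix side, were among those called. Uqcrc1 (chr9:108936633-108949623, plus strand) had 7753, 7846 and 8312 normalized counts in T1 and 4894, 4519 and 4455 in T2 replicates. The groups lay far apart, with a log2 difference of 0.79 (standard error 0.07, adjusted p = 6.28e-06, limma). Uqcrc2 (chr7:120635176-120659524, plus strand) had 4609, 4903 and 4658 and 2652, 2425 and 2695. It differed by 0.87 (standard error 0.07, adjusted p = 3.96e-06, limma), and exons on the other strand cover 19.7% of its exonic bases. Summed, the pair was 1.76 times as high in T1 as in T2 cells.

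The Rieske protein Uqcrfs1, which passes electrons from coenzyme Q to cytochrome c1, had 3008, 3072 and 3041 and 2529, 2348 and 2477 normalized counts and, like Uqcrq, is named after its value was seen. It was called higher by 0.31 (adjusted p = 0.00297, limma), and the adjusted p-value passed 0.01 without T1 replicate 1, T1 replicate 2 or T2 replicate 2, reaching 0.0152. Of the 5 small subunits, Uqcrq was called, with 3258, 3269 and 3608 in T1 and 2393, 2171 and 1929 in T2 replicates, a difference of 0.65 (adjusted p = 0.000158, limma). Uqcrh, the hinge protein of the cytochrome c1 site, had 2481, 2422 and 2099 and 2264, 2084 and 2229.8. These overlapped, with a log2 difference of 0.09 (95% interval -0.10 to 0.28, adjusted p = 0.4, limma). The summed ratio of the small subunits was 1.24, and the difference between core proteins and small subunits was not tested.

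Complex IV, cytochrome c oxidase, had 12 of its 20 genes tested, with 3 called higher and 1 lower in T1 cells and a median log2 difference of 0.05. The share called higher was near the 25.1% of all genes tested. The sign of the median was not stable: it was -0.033 with the exonic length trend of each library removed, and 0.03 to 0.09 with single replicates left out. Cox4i1 (chr8:120668222-120674207, plus strand), the ubiquitous isoform of a subunit that takes part in regulation by ATP, had 11421, 11346 and 12463 normalized counts in T1 and 7991, 7140.4 and 6799.7 in T2 replicates. All T1 replicates were above all T2 replicates, by 0.69 (standard error 0.08, adjusted p = 4.11e-05, limma). Cox5a, its neighbour in the complex, had 3289, 3371 and 3204 and 2247, 2072 and 2437. The groups did not overlap, and the difference was 0.55 (standard error 0.08, adjusted p = 0.000182, limma). Cox6b1, on the intermembrane side, had 3745, 4035 and 3779 and 3082, 3034 and 2880.2, a difference of 0.36 (standard error 0.07, adjusted p = 0.00131, limma).

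Ndufa4 moved the other way. Its symbol belongs to complex I, but the protein is counted here as a subunit of complex IV. It had 2677, 3012 and 2778 normalized counts in T1 and 4176, 4049 and 4226 in T2 replicates (chr6:11900292-11907497, minus strand). Every T1 replicate lay below every T2 replicate, with a log2 difference of -0.56 (standard error 0.07, adjusted p = 8.74e-05, limma), and the call stood whichever replicate was left out (-0.61 to -0.52). It was the largest negative difference among the OXPHOS genes tested. Cox7a2l, a factor that joins complexes III and IV into supercomplexes, had 2222, 2125 and 2415 and 2874, 2498 and 2903. Its T1 values were all below its T2 values, but the difference of -0.29 missed the threshold (adjusted p = 0.0146, limma). Without T1 replicate 3 or T2 replicate 2 it was called, with an adjusted p-value as low as 0.00674, which makes the count of complex IV genes called lower 2. Cox6a1, Cox7a2, Cox7b and Cox8a were not called, with intervals of -0.34 to 0.05, -0.20 to 0.14, -0.21 to 0.17 and -0.09 to 0.25.

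Several subunits of complex IV, and the c subunit of the ATP synthase, exist as paralogs, some of them used mainly in muscle, lung or testis. The T1 and T2 cells used the same dominant forms. Cox4i2, Cox6a2, Cox6b2, Cox7a1 and Ndufa4l2 had at most 6 reads in any library, and Cox7b2, Cox8b and Cox8c had 0. None of these was tested, and Cox4i1, Cox6a1, Cox6b1, Cox7b, Cox8a and Ndufa4 made up at least 99.9% of the counts of their groups in both populations. Cox7a2 took 49.0% and Cox7a2l 50.9% of the counts of the Cox7a group in T1 cells, against 44.6% and 55.4% in T2 cells. These shares are not corrected for transcript length. Per kilobase of principal transcript, Cox7a2 was the higher in both, at 3290 against 2095 for Cox7a2l in T1 and 3370 against 2564 in T2 cells.

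The ATP synthase had 4 of 15 genes called higher and 1 lower in T1 cells, with a median log2 difference of 0.06. Its share called higher was near the 25.1% of all genes tested. The calls are given by part of the enzyme, and differences between the parts were not tested. The median was 0.0152 with the exonic length trend removed and 0.03 to 0.13 with single replicates left out. In the F1 head, which makes ATP in the matrix, 3 of 5 subunits were called higher. Atp5b (chr10:128083273-128090391, plus strand), the catalytic beta subunit, had 46627, 50983 and 51884 normalized counts in T1 and 26714, 27401 and 26085 in T2 replicates. The lowest T1 replicate was far above the highest T2 replicate, with a log2 difference of 0.90 (standard error 0.07, adjusted p = 3.49e-06, limma). Atp5a1, the alpha subunit, had 25868, 26869.6 and 26325 and 17730.0, 17384 and 16154. It differed by 0.63, again without overlap (standard error 0.07, adjusted p = 2.86e-05, limma). Atp5d, the delta subunit of the central stalk, named after its values were seen, had 5109.5, 5288 and 5634 and 3981, 3809.8 and 3333, a difference of 0.53 (adjusted p = 0.000323, limma). The gamma and epsilon subunits, Atp5c1 and Atp5e, were not called and overlapped, with intervals of -0.30 to 0.04 and -0.13 to 0.25. The genes of the head thus did not move as 1 unit: the summed level was 1.57 times as high in T1 cells, and Atp5b and Atp5a1 made up most of that sum.

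The c ring, which turns with the proton flow, is built from 1 protein encoded by 3 genes. Atp5g3 supplied 91.5% of the counts of the 3 in T1 and 93.8% in T2 cells. It had 8451, 8563 and 8051 normalized counts in T1 and 7727, 6964 and 7086 in T2 replicates, which did not overlap but missed the threshold (0.20, 95% interval 0.04 to 0.36, adjusted p = 0.0294, limma). Atp5g1 had 722, 716 and 777 and 507, 499.6 and 345. It was called higher in T1 cells by 0.73 (standard error 0.15, adjusted p = 0.00156, limma), and T2 replicate 3 was the lowest sample. Atp5g2 had 58.2, 35.3 and 30.3 and 30.4, 25.6 and 29.7, with overlap, and 86.9% of its windows occur in a gene elsewhere. Among the 7 subunits of the peripheral stalk and membrane part, 0 were called higher in limma, edgeR and DESeq2 (0 also at an unadjusted p-value under 0.05) and 1 lower, Atp5j, which encodes coupling factor 6. It had 1832, 1965 and 1882 in T1 and 2714, 2407 and 2490.5 in T2 replicates. All T1 values lay below all T2 values, with a log2 difference of -0.42 (standard error 0.08, adjusted p = 0.000884, limma). The other subunits of this part, Atp5f1, Atp5h, Atp5j2, Atp5k, Atp5l and Atp5o, had log2 differences from -0.33 to 0.09. The summed level of the 7 was 0.954 times that of T2 cells.

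Assembly factors of complex I help to build the enzyme and are not part of it. Of 7, 3 were called higher and 0 lower in T1 cells in limma, edgeR and DESeq2 (0 lower at an unadjusted p-value under 0.05), and all 7 differences were positive. Ndufaf4 (chr4:24898083-24905001, plus strand), a factor of an early assembly intermediate, had 1342, 1241 and 811 normalized counts in T1 and 439, 506 and 481 in T2 replicates. T1 replicate 3 was well below the other T1 replicates but above every T2 replicate. The log2 difference of 1.22 (standard error 0.17, adjusted p = 0.00013, limma) was the largest among the OXPHOS genes tested, and it was 1.44 without that replicate. Ndufaf6, needed for translation or stability of a mitochondrial complex I subunit, had 359, 379 and 452 and 195, 192 and 178. It differed by 1.06 without overlap (standard error 0.13, adjusted p = 6.48e-05, limma). Ndufaf5, which modifies Ndufs7, had 300.5, 351 and 361 and 193, 222 and 202, a difference of 0.71 (adjusted p = 0.000955, limma), and was named after its values were seen. Ndufaf1, Ndufaf2, Ndufaf3 and Ndufaf7 were not called, with differences from 0.05 to 0.21. Atp5s and Atp5sl had differences of 0.10 and 0.10 and were not called.

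Summed over all 92 genes, nuclear OXPHOS transcripts took 1.38% ± 0.0370 of the counts of a T1 library and 1.08% ± 0.0430 of those of a T2 library (SD, n = 3 each). The T1 libraries ran from 1.34% to 1.41% and the T2 libraries from 1.04% to 1.13%, without overlap. The F1 head of the ATP synthase contributed 0.477% ± 0.0174 and 0.308% ± 0.00591 (SD, n = 3 each). Complex I contributed 0.310% ± 0.0119 and 0.252% ± 0.0139, and complex III 0.134% ± 0.00163 and 0.0936% ± 0.00380 (SD, n = 3 each). Complex IV took 0.240% ± 0.00585 and 0.219% ± 0.0110 (SD, n = 3 each), with the lowest T1 library at 0.234% and the highest T2 library at 0.231%. The stalk and membrane part of the ATP synthase took 0.0848% ± 0.00157 and 0.0899% ± 0.00577 (SD, n = 3 each), and its libraries overlapped. As ratios of summed normalized counts, T1 over T2 cells, the groups stood at 1.24 for complex I, 1.13 for complex II, 1.45 for complex III, 1.11 for complex IV and 1.41 for the ATP synthase. The ATP synthase thus had a ratio of sums of 1.41 beside a median log2 difference of 0.06, and Atp5b and Atp5a1 made up most of its sum.

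**Figure D3:**
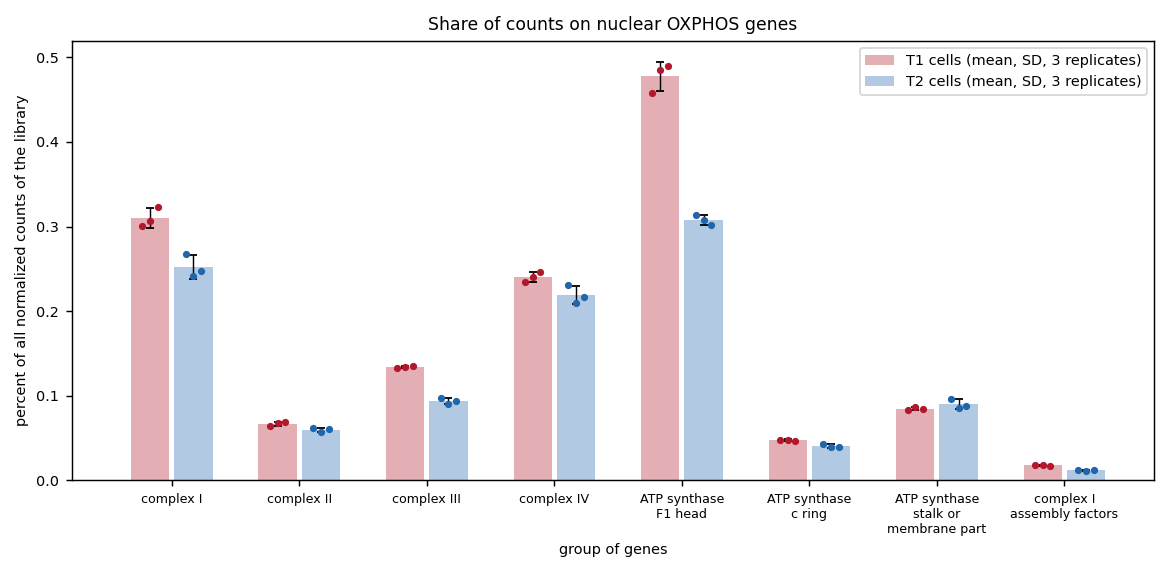
Percent of all normalized counts of a library (y axis, from 0) taken by genes of each complex or part of the ATP synthase (x axis). Bars are means, error bars SD and points the 3 replicates of T1 (red) and T2 cells (blue); the F1 head reached 0.477% in T1 and 0.308% in T2 cells, while the stalk and membrane part stood at 0.0848% and 0.0899%.

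The level of a gene, as normalized counts per kilobase of its principal transcript, could be given for 82 of the genes tested. The median per kilobase was 4862 for complex IV, 3640 for the ATP synthase, 2890 for complex III, 1873 for complex II and 1645 for complex I in T1 cells. In T2 cells the medians were 4172, 3552, 2286, 1697 and 1350 in the same order of complexes. Assembly factors of complex I were lower, at 289 and 176. Within complexes the subunits ranged widely although most are present in 1 copy per enzyme. In complex I the mean level per kilobase over both populations ran from 40.7 for Ndufb4 to 10651 for Ndufb9, in complex IV from 203 for Cox7c to 12453 for Cox4i1, and in the ATP synthase from 47.8 for Atp5g2 to 19980.3 for Atp5b.

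Some of the lowest levels stood beside sequence shared with other genes. A 75-base window of the principal transcript that also occurs in a gene elsewhere was found for 25 of the 91 genes matched to the annotation, and in 9 genes such windows made up over 20% of the transcript. These were Atp5g2 (86.9%), Atp5l (63.4%), Cox7c (50.4%), Atp5h (36.5%), Ndufb4 (35.2%), Uqcrb (29.1%), Ndufs3 (27.1%), Ndufs5 (24.1%) and Ndufa12 (22%). Reads from such windows may be discarded or placed on the copy, so levels of these genes per kilobase are uncertain. Of the 9, Ndufa12 was the 1 called. Without these genes, 75 were tested, of which 28 were higher and 4 lower in T1 cells.

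**Figure D4:**
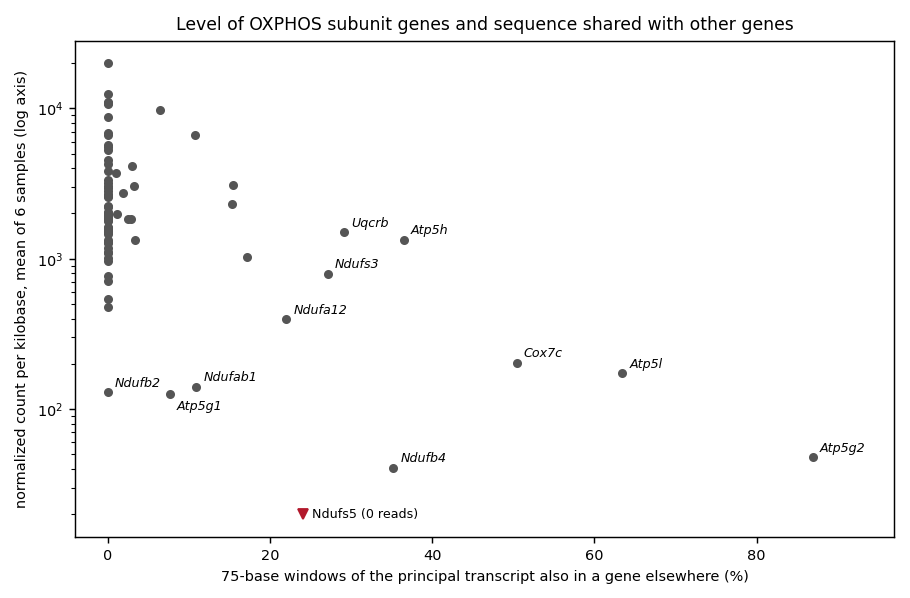
Mean normalized count per kilobase over the 6 samples (y axis, log scale) against the percent of 75-base windows of the principal transcript that also occur in a gene elsewhere (x axis), for subunit genes outside the tissue-restricted isoforms. Each point is a gene; Atp5g2 (86.9%), Atp5l (63.4%) and Cox7c (50.4%) lie to the lower right, and the triangle marks Ndufs5, which had 0 reads and is drawn at the foot of the axis.

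Genes that act beside the complexes were read from lists. Windows shared with genes elsewhere were counted only for genes of the symbol rule, so counts of other listed genes may be incomplete. Cytochrome c1 (Cyc1), the catalytic subunit of complex III that the symbol rule does not take, had 5122, 5060.1 and 5154 normalized counts in T1 and 2647, 2701 and 2326 in T2 replicates. It was higher in T1 cells by 1.002 on the log2 scale (standard error 0.08, adjusted p = 2.12e-06, limma), more than Uqcrc1 or Uqcrc2. Cytochrome c (Cycs) had 99.5, 124 and 80 and 62.7, 75.8 and 65.9, which did not overlap, and its difference of 0.54 missed the threshold (adjusted p = 0.0434, limma). Carriers that supply the ATP synthase with ADP and phosphate, together with uncouplers, had 4 of 4 tested genes higher in T1 cells (median 0.63). Slc25a3, the phosphate carrier, had 20785, 22091 and 21319.8 and 12204, 12329 and 12226, a difference of 0.80 (adjusted p = 3.06e-06, limma). Slc25a5, an ADP and ATP carrier, had 16969.7, 17932 and 16565 and 10687, 10923 and 9332, a difference of 0.74 (adjusted p = 2.32e-05, limma).

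Of the assembly factors of complex IV, 12 of the 19 tested were called higher and 1 lower (median 0.45). Single replicates mattered to this count: 5 were called higher without T2 replicate 1, 6 without T1 replicate 2 and 7 without T2 replicate 3. Taco1, which promotes translation of a mitochondrial complex IV subunit, had 329, 359 and 310.4 normalized counts in T1 and 197, 183 and 188 in T2 replicates. It was higher by 0.81 (adjusted p = 0.000282, limma), whereas Cox20, with 348, 351 and 368 and 589, 548 and 632, was lower by 0.73 (adjusted p = 0.000185, limma). Of 4 complex II factors, Sdhaf1, which helps to mature Sdhb, was higher (0.89), while Sdhaf4 and Sdhaf2, which act on Sdha, were lower (-0.84 and -0.50). Sdhaf2, named after its values were seen, kept its call only without T1 replicate 1 or T1 replicate 3 (adjusted p = 0.0417 without T2 replicate 1, limma). In the lists for complex I outside the symbol rule, complex III and the ATP synthase, 2 of 7, 1 of 6 and 1 of 4 were higher and 0 were lower in limma and edgeR. Over all genes tested, limma called 25.1% higher and 24.4% lower. DESeq2, like an unadjusted p-value under 0.05 in limma, gave 1 lower in the list for complex I and 0 in the others. Of these, Ecsit (0.68) kept its call with any replicate left out. Nubpl (0.51) lost it with every replicate left out in turn, Uqcc1 (0.46) without T1 replicate 1, T1 replicate 2, T2 replicate 1 or T2 replicate 3, and Tmem70 (0.52) without T1 replicate 1 or T1 replicate 2, with adjusted p-values of up to 0.045, 0.0349 and 0.0125 (limma).

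**Figure D5:**
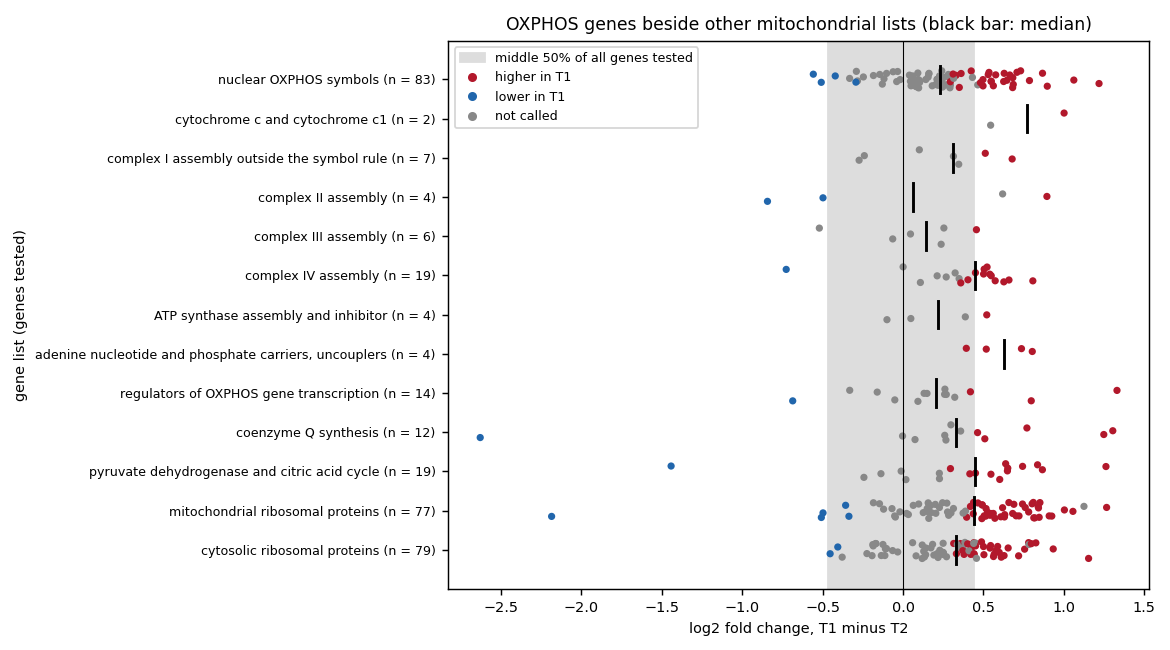
Log2 difference (T1 minus T2, x axis) of every tested gene in the nuclear OXPHOS genes and in other lists (rows, with the number tested). Points are genes, red where called higher in T1 cells, blue lower and grey not called; black bars are list medians (0.23 for OXPHOS, 0.45 for the citric acid cycle, 0.44 for mitochondrial ribosomal proteins), and the grey band holds the middle 50% of all genes tested.

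Enzymes that feed the chain, and the mitochondrial ribosomes that translate its subunits encoded by mitochondrial DNA, showed higher medians than the nuclear OXPHOS genes. Of 19 genes of pyruvate dehydrogenase and the citric acid cycle, 12 were higher and 1 lower in T1 cells (median 0.45). Citrate synthase (Cs) had 11064, 11367 and 10736 normalized counts in T1 and 4647, 4666 and 4512 in T2 replicates, a log2 difference of 1.26 (standard error 0.07, adjusted p = 1.25e-07, limma). Pyruvate carboxylase (Pcx), with 80.4, 70.7 and 80 and 233, 197 and 204, was lower by 1.44 (adjusted p = 2.5e-05, limma). Of 77 mitochondrial ribosomal protein genes, 41 were higher and 5 lower (median 0.44), and 3 were lower without T1 replicate 1, T2 replicate 1 or T2 replicate 3. Mrpl34 was higher by 1.27, and Mrps6 was lower by 2.19, with 529, 535 and 496 in T1 and 2432, 2079 and 2620.4 in T2 replicates (adjusted p = 1.08e-06 and 5.88e-08, limma). Of 79 cytosolic ribosomal protein genes, 32 were higher and 2 lower (median 0.33; 0 or 1 lower in limma with any replicate left out), with Rps29 at 1.15 and Rps16 at 0.93, so a median above 0 was not limited to mitochondrial genes. In coenzyme Q synthesis 5 of 12 were higher and 1 lower. Pdss2, which builds the side chain, was higher by 1.30 (adjusted p = 1.58e-05, limma), and Adck3, at 5.29, 1.86 and 11.7 in T1 and 49.9, 25.6 and 39 in T2 replicates, was lower by 2.63 (adjusted p = 0.00136, and 0.0109 without T2 replicate 1, limma).

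A list of regulators held transcription factors and coactivators known to act on nuclear or mitochondrial OXPHOS genes, together with Polrmt, Peo1 and Polg, enzymes that transcribe or copy mitochondrial DNA. Of its 14 tested genes, 3 were higher in T1 cells (Ppargc1b, Pprc1 and Polg) and 1 was lower (Gabpb2). Neither share exceeded that of all genes tested, 25.1% higher and 24.4% lower. The coactivators Ppargc1b and Pprc1 were higher: Ppargc1b had 184, 166 and 189 normalized counts in T1 and 62.7, 106 and 52.9 in T2 replicates (1.33, adjusted p = 0.000851, limma), and Pprc1 had 3779.5, 3745 and 3508 and 2176, 2225 and 1952 (0.80, adjusted p = 1.18e-05, limma). Ppargc1a, the best known of this family, had at most 1 read in any library. Nrf1 had 1338, 1232 and 1177 and 1012, 1118 and 1001, a difference of 0.26 (adjusted p = 0.0287, limma). Gabpa, the DNA-binding subunit of GABP, had 1669.7, 1780.0 and 1538 and 1937, 1992 and 2361, a difference of -0.33 (adjusted p = 0.0131, limma). Neither of these passed the threshold. Gabpb2, which encodes a beta subunit of GABP, was the regulator called lower, with 1923, 1863 and 1809.5 in T1 and 2717, 3384 and 2936 in T2 replicates. The groups did not overlap, the difference was -0.69 (standard error 0.09, adjusted p = 9.06e-05, limma), and the call stood whichever replicate was left out. Gabpb1, which encodes the other beta subunit, was not called (0.26, adjusted p = 0.0427, limma). Polg was higher by 0.42 (adjusted p = 0.00238, limma), lost its call without T2 replicate 1 or T2 replicate 3 (adjusted p of up to 0.0134, limma) and, like both beta subunits of GABP, is named after its values were seen. Tfam, which packages mitochondrial DNA and helps to start its transcription, overlapped between the groups (0.13, 95% interval -0.06 to 0.32).

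Across the 82 OXPHOS genes with a known length, Spearman's rho of the log2 difference with the length of the principal transcript was 0.28, against -0.08 over all 11390 genes with a length. With GC content rho was 0.14, against 0.015, and with the level per kilobase -0.06, against 0.09. These are descriptions across genes of the same 6 libraries, in which genes are not independent replicates. After the trend of each library with exonic length was removed, 28 OXPHOS genes were called higher in T1 cells and 7 lower.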

How the data were processed

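RNA was sequenced from T1 and T2 cells, 3 replicates each, grouped by their labels. The authors made the libraries from polyadenylated RNA, trimmed adapters (Trimmomatic), mapped reads to mm10 (TopHat2), obtained gene counts (HTSeq) and scaled these (DESeq2). Versions, annotation and strand setting are not given in the sources used here. The deposited signal is a normalized count, the read count of a gene divided by 1 size factor per library. Reads that align to several places may be lost from such counts, which lowers genes with close copies. Whole reads were recovered from 100% of the values within a tolerance of 0.01.

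Genes averaging 10 normalized counts or more were fitted in R 4.3.3 by limma 3.58.1, with a variance trend, after a log2 transformation with a pseudocount of 1, and p-values were adjusted over all 11514 genes by the method of Benjamini and Hochberg. Low genes are understated on that scale. The fits were also run on simulated data with far fewer changed genes than the 49.5% called here, so that run does not test them in this setting. The members and lists were chosen with earlier results of these data known. Alternatives were pseudocounts of 0.5 and 5, no filter or a mean of at least 50, quantile and TMM scaling, no variance trend, length and GC trends removed, the replicate number as a block, each replicate left out, other call rules, and edgeR 4.0.16 and DESeq2 1.42.0 on the recovered reads.

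Genes named by rule were, in each complex and among the assembly factors, the 2 called genes with the largest difference in each direction and no overlap, any gene past a log2 difference of 2, Sdha to Sdhd, the 7 core subunits of complex I, Atp5a1, Atp5b, all paralogs and Uqcrh. In other lists they were the 2 called genes with the largest absolute difference, with Cyc1, Cycs, Ppargc1a, Nrf1, Gabpa and Tfam. Others are named to complete a group after their values were seen. A gene that the rule names is not reported here by itself. For coordinates, lengths and shared windows the GENCODE annotation (mm10) was used, which matched 91 of the 92 genes, and promoters from RefSeq. Figures were drawn with matplotlib 3.10.9. The libraries held 18133227 to 20839686 reads on genes, and counting error was not set against the spread between replicates. Separate batches are not given in the labels.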

Additional observations from a re-analysis of the deposited data

How the results depend on the processing

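Of the 33 OXPHOS genes called, 25 (23 higher and 2 lower, Atp5j and Ndufa4) were called in each of 18 alternative fits, and 0 changed direction in any of them. The others, Ndufa13, Ndufa9, Ndufab1, Ndufs1, Ndufv1, Uqcrfs1, Ndufv3 and Sdhc, lost the call in 1 to 9 fits. The count of 4 genes lower in T1 cells was 7 after the exonic length trend was removed and 8 at an adjusted p-value under 0.05, and it ran from 2 (without T2 replicate 1) to 5 when each replicate was left out, while the count of 29 higher ran from 24 to 26. With an absolute log2 difference above 1 the counts were 2 higher and 0 lower, and above 2 they were 0 and 0 (limma; 0 also with edgeR and DESeq2, and at an unadjusted p-value under 0.05). Over the other lists together, 115 genes were called higher and 13 lower. Of these, 41 and 5 were mitochondrial ribosomal protein genes, and 32 and 2 were cytosolic ones. The lower count over all these lists ran from 7 (without T2 replicate 1) to 12 with single replicates left out. A log2 difference above 1 left 9 higher and 3 lower, and above 2 it left 0 higher and 2 lower. With the exonic length trend removed, the median log2 difference was 0.11 for complex II, 0.18 for complex III and -0.033 for complex IV. The cause was not tested. The median of complex III ran from 0.26 to 0.32 with single replicates left out, and the other medians of complexes moved by less than the spread between replicates. With the replicate number as a block, 28 OXPHOS genes were called higher and 3 lower, against 29 and 4 without it. The numbers share no stated origin. Deviations of same-numbered samples correlated at 0.057, 0.172 and 0.104, and those of differently numbered samples at -0.152 to 0.072. The same number was the best match except for T2 replicate 1, which correlated best with T1 replicate 3 (0.072). DESeq2 called 38 OXPHOS genes and limma without a variance trend 27. Depth limits the isoforms with at most 6 reads, for which no difference could be detected. The 9 genes with much shared sequence are limited by reads that may be discarded or placed elsewhere.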
